A study of Mus musculus with 2 samples.

Results

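The IL-4, IL-7, IL-10 and IL-15 receptor group is a set of 9 genes for cytokines of the lymphoid type and for the receptor chains that bind them. The genes are *Il4ra*, *Il13ra1*, *Il2rg*, *Il15*, *Il15ra*, *Il7*, *Il7r*, *Il10ra* and *Il10rb*. A probe set, the group of short oligonucleotides that reads one transcript on an Affymetrix array, was taken for a member when the platform annotation named that gene alone. This gave 20 probe sets for 8 of the 9 members, out of 18193 genes with a probe set of their own. The group was put together by function but selected on these arrays, with the log2 ratios of some members already known, so its values are a description. *Il2rg*, the common gamma chain, had no probe set under its symbol in the annotation used and was not analysed here.

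Both arrays hold RNA of ventricular cardiomyocytes (mNVCM) from C57BL6/J mice at postnatal day 2, cultured for 48 to 72 h and kept for 1 h in 0.5% serum. One culture, named Dox, received 1 μM doxorubicin without pre-treatment, and the other, named hAFS-CM Hypo + Dox, was first incubated for 3 h with the secretome of human amniotic fluid stem cells. Doxorubicin is an anthracycline that poisons type II topoisomerases and so breaks DNA, and the study made the secretome from cells held in hypoxia. The labels give 6 h of doxorubicin for hAFS-CM Hypo + Dox and 21 h for Dox, whereas the methods of the study name 6 h for gene expression, so that pre-treatment and hours of doxorubicin cannot be told apart if the labels are right. These are primary cultures made by collagenase digestion and may hold other cells of the heart. The labels do not say how many hearts were pooled.

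There was 1 array per condition, so no value has a replicate error, no test could be made and all differences describe these 2 arrays. Values are log2 expression after RMA with quantile normalization by the authors, and differences are log2 ratios, hAFS-CM Hypo + Dox over Dox. As a guide to size, log2 ratios read by several probe sets for a single gene scattered with a pooled SD of 0.20 over 5166 genes, called the probe-set SD below. It holds no variation between cultures. Only probe sets with a mean at or above the median of all values entered it, so it may not describe dimmer ones. Unless said otherwise, a gene is given at its brightest probe set, the one with the highest mean over both arrays. Signal was read against the median of all values, 5.10, and against their 25th percentile, 3.80, since the values carry no detection call. Levels of different genes are not compared, as binding strength varies from probe set to probe set. The 8 cardiomyocyte markers lay between 11.9 and 14.7 on the hAFS-CM Hypo + Dox array and between 12.1 and 14.8 on the Dox array, far above the median signal.

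IL-4 and IL-13 signal through a receptor that pairs IL-4Rα with IL-13Rα1 on many non-lymphoid cells, or IL-4Rα with the common gamma chain on lymphocytes, and switch on STAT6. IL-7 and IL-15 use the common gamma chain too, together with IL-7Rα or with a chain that reads IL-15 held on IL-15Rα by a neighbouring cell, and act mainly through STAT5. IL-10 binds IL-10Rα, joined by IL-10Rβ, which other cytokines of the family share, and acts through STAT3. Most of these genes are best known from leukocytes, and the IL-13 receptor chains also from fibroblasts.

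The upstream sequences of 3 receptor genes are shown because *Il4ra* and *Il13ra1* code for the partner chains of one receptor and were both higher with hAFS-CM Hypo, and because *Il7r* held the only STAT-type match among the members with a promoter in the RefSeq table. Each is the RefSeq sequence of the 250 bases before the annotated start in GRCm38.p6, 5′ to 3′ on the strand of the gene. The *Il4ra* sequence lies at chr7:125552021-125552270 (+), that of *Il13ra1* at chrX:36111858-36112107 (+) and that of *Il7r* at chr15:9529877-9530126 (-). Capitals mark ATGNAAAT in *Il4ra* and TTCNNNGAA in *Il7r*.
Il4ra: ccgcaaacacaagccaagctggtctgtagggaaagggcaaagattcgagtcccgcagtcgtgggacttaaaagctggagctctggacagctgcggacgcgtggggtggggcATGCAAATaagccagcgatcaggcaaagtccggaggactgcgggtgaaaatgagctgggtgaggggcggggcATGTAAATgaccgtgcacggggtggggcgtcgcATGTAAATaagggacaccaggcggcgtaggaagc
Il13ra1: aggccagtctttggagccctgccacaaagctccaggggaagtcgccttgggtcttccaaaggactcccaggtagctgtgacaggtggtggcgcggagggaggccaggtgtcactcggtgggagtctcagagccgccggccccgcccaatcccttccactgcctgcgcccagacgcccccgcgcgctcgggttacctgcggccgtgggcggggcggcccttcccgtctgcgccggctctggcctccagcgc
Il7r: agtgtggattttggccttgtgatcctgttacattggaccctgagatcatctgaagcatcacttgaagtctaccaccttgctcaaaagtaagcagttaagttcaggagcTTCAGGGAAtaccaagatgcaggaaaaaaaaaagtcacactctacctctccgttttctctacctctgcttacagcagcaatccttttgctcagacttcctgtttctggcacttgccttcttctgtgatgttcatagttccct

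The table of promoters held 6 sequences for 5 members, *Il2rg* and *Il15ra* besides these 3. Letters were searched on both strands for the STAT motif TTCNNNGAA, the STAT6 form TTCNNNNGAA, the interferon response motif GAAANNGAAA and the κB motif. None of the 4 was found in the upstream sequences of *Il4ra*, *Il13ra1*, *Il2rg* and *Il15ra*. In *Il7r* one TTCNNNGAA match begins 142 bases before the start. Of all 32851 promoters, 7.02% held TTCNNNGAA, 5.85% TTCNNNNGAA, 2.98% GAAANNGAAA and 7.25% the κB motif. The sequence of *Il4ra* carries ATGNAAAT, a form of the octamer that POU factors read, at 3 places that begin 139, 67 and 34 bases before the start. This motif was chosen after the sequence was read. At least 1 copy was found in 5.03% of all promoters and 3 or more in 12 of them. *Il13ra1* has a GC-rich sequence, at 70.8% G and C, against 59.6% for *Il4ra*, 44.0% for *Il7r* and a median of 52.4% over all promoters. A match of letters is not evidence of binding, and its absence says only that these letters are not in the window.

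*Il4ra*, the signalling chain shared by the receptors of IL-4 and IL-13, had the largest difference of the group. At its brightest probe set, 1421034_a_at, its log2 value was 6.46 on the hAFS-CM Hypo + Dox array and 4.93 on the Dox array. Only the former lay above the median of all values. The log2 ratio was 1.54, or 2.90-fold, place 28 in the order of rises over all genes. The other probe sets of *Il4ra* gave smaller differences. The values of 1423996_a_at were 5.67 with hAFS-CM Hypo + Dox and 5.27 with Dox, a log2 ratio of 0.40. Those of 1447858_x_at were 4.91 on both arrays, a log2 ratio of -0.0045 at a signal below the median. The 2-fold difference therefore rests on 1 of 3 probe sets, and the mean of the 3 log2 ratios was 0.64. All 3 have suffixes that were grouped here as less specific. These are _a for probes shared by several transcripts of a gene, _s for probes that may be shared between genes and _x for probes that may cross-hybridise. An _a probe set is thus less specific for a transcript, not for the gene. Leaving out all these types leaves no reading of *Il4ra*. Mouse *Il4ra* is known to give a membrane-bound and a soluble form by splicing. Which transcripts each probe set reads was not tested. In bulk RNA, fewer cells of a type and less RNA per cell cannot be told apart.

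Among the 8 measured members, *Il4ra* was 2-fold higher and no other gene passed 2-fold in either direction, where 0.506% of all genes were 2-fold higher and 0.214% were 2-fold lower. At 1.5-fold, *Il4ra*, *Il7* and *Il13ra1* were higher and *Il15* was lower, 3 and 1 genes, where 2.32% of all genes were higher and 1.52% were lower. The Dox reading of *Il7* was below the 25th percentile of signal, so its place in this count is uncertain. Nothing is read from these shares, because the members were selected on these arrays. Among genes with signal at or above the median, those nearest to *Il4ra* in log2 ratio were *Klhl40*, with 1.55, *Enpp3*, with 1.52 (-0.08 to 1.61 over 5 probe sets), and *Tubb3*, with 1.56. This likeness rests on 1 difference between 2 arrays.

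*Il13ra1*, the chain that pairs with IL-4Rα and binds IL-13, was read by 5 probe sets that pointed the same way. At 1427165_at its log2 value was 9.10 with hAFS-CM Hypo + Dox and 8.45 with Dox, a log2 ratio of 0.65, or 1.57-fold. With hAFS-CM Hypo + Dox, each of the 5 probe sets read higher than with Dox, by more than the probe-set SD. The lowest of the 5 log2 ratios was 0.29, at 1427164_at (8.51 and 8.22), and 1454783_at gave 0.42 (8.81 and 8.40). The less specific 1451775_s_at gave 0.53 (8.77 and 8.24). The remaining probe set, 1425625_at, was dim, with 4.49 and 4.13, and gave 0.36. The difference in *Il13ra1* was below 2-fold at every probe set.

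**Figure D1:**
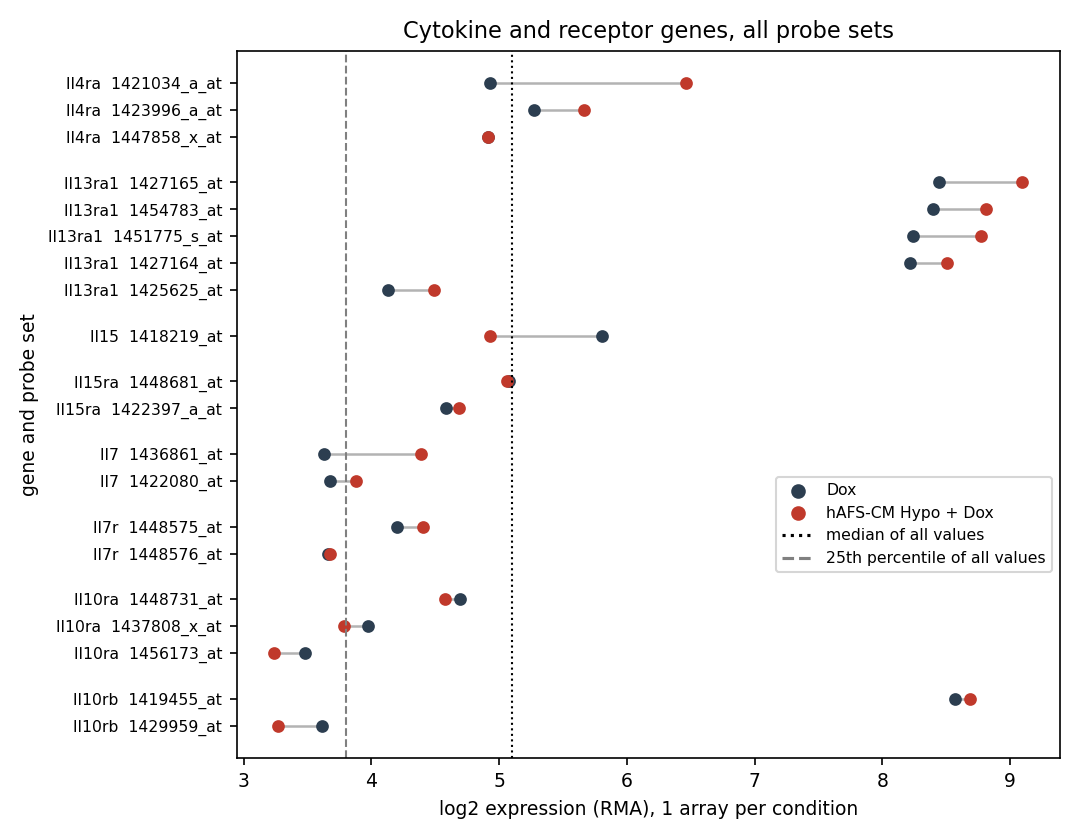
Log2 expression (RMA) of each probe set of the 8 measured genes with Dox (dark) and with hAFS-CM Hypo + Dox (red), 1 array per condition; dotted and dashed lines give the median (5.10) and the 25th percentile (3.80) of all values. The red point lies to the right for all 5 probe sets of *Il13ra1* and to the left for *Il15*, and the probe sets of *Il7*, *Il7r* and *Il10ra* lie left of the median.

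The third chain that binds IL-13, the decoy receptor gene *Il13ra2*, is not a member but belongs to the same receptor system. It was 5.25 with hAFS-CM Hypo + Dox and 4.73 with Dox, the latter below the median signal, a log2 ratio of 0.52 from its only probe set. *Il4ra*, *Il13ra1* and *Il13ra2* each had a log2 ratio above 0 at the brightest probe set, as had 51.19% of all genes. Nothing is read from this shared sign, because members and lists were chosen with earlier results known. The ligand genes gave little signal in either culture, as seen after their values were read. *Il4* had values of 3.99 and 4.07 and *Il13* of 4.63 and 4.57, with hAFS-CM Hypo + Dox first, all below the median of all values.

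*Il15* codes for the cytokine that sustains natural killer cells and memory T cells, and it was the only member lower by over the probe-set SD. Its log2 value was 4.93 with hAFS-CM Hypo + Dox and 5.80 with Dox, read by 1 probe set, 1418219_at. The log2 ratio of -0.87, or 1.83-fold lower, was place 68 in the order of falls over all genes. The Dox array lay above the median of all values and the hAFS-CM Hypo + Dox array below it. With 1 probe set there is no second reading of this gene. Genes nearest to *Il15* in log2 ratio, at signal above the median, were *Ppip5k2*, with -0.88, *Txlnb*, with -0.87 (-1.22 to -0.87 over 2 probe sets), and *Emilin2*, with -0.88. This likeness, too, rests on 1 difference between 2 arrays.

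*Il15ra*, which holds IL-15 on the cell surface and presents it, read about the same on both arrays. It was 5.06 with hAFS-CM Hypo + Dox and 5.08 with Dox at 1448681_at, a log2 ratio of -0.02. At 1422397_a_at it was 4.68 and 4.58, a log2 ratio of 0.10. Both lay within the probe-set SD, at signals below the median of all values.

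*Il7*, the cytokine that supports lymphocyte survival and comes from stromal cells, was dim at both of its probe sets. At 1436861_at the values were 4.39 with hAFS-CM Hypo + Dox and 3.63 with Dox, a log2 ratio of 0.76. At the other, 1422080_at, they were 3.88 and 3.68, a log2 ratio of 0.20. Both Dox readings were under the 25th percentile, where, without a detection call, signal cannot be told from background. The log2 ratios of *Il7* are therefore uncertain, and neither array reached the median at either probe set.

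*Il7r*, the receptor chain of lymphocytes that IL-7 and TSLP share, had little signal. It was 4.40 with hAFS-CM Hypo + Dox and 4.20 with Dox at 1448575_at, a log2 ratio of 0.21. At 1448576_at it was 3.67 and 3.66, a log2 ratio of 0.01 below the 25th percentile. The larger of the 2 differences is about the probe-set SD.

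The IL-10 receptor chains gave no difference beyond that SD at their brightest probe sets. *Il10rb*, the widely expressed accessory chain, was 8.69 with hAFS-CM Hypo + Dox and 8.57 with Dox at 1419455_at, a log2 ratio of 0.12 at high signal. Its other probe set, 1429959_at, was 3.27 and 3.61, a log2 ratio of -0.34 with both arrays below the 25th percentile. *Il10ra*, the ligand-binding chain of leukocytes, was 4.58 and 4.70 at 1448731_at, a log2 ratio of -0.12. Its other probe sets gave -0.18 (3.79 and 3.97, at 1437808_x_at) and -0.24 (3.24 and 3.48, at 1456173_at). All 3 readings of *Il10ra* were lower with hAFS-CM Hypo + Dox, at signals below the median of all values. *Il10rb* thus read above the median signal in both cultures at its brightest probe set, and *Il10ra* read below it in both.

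**Figure D2:**
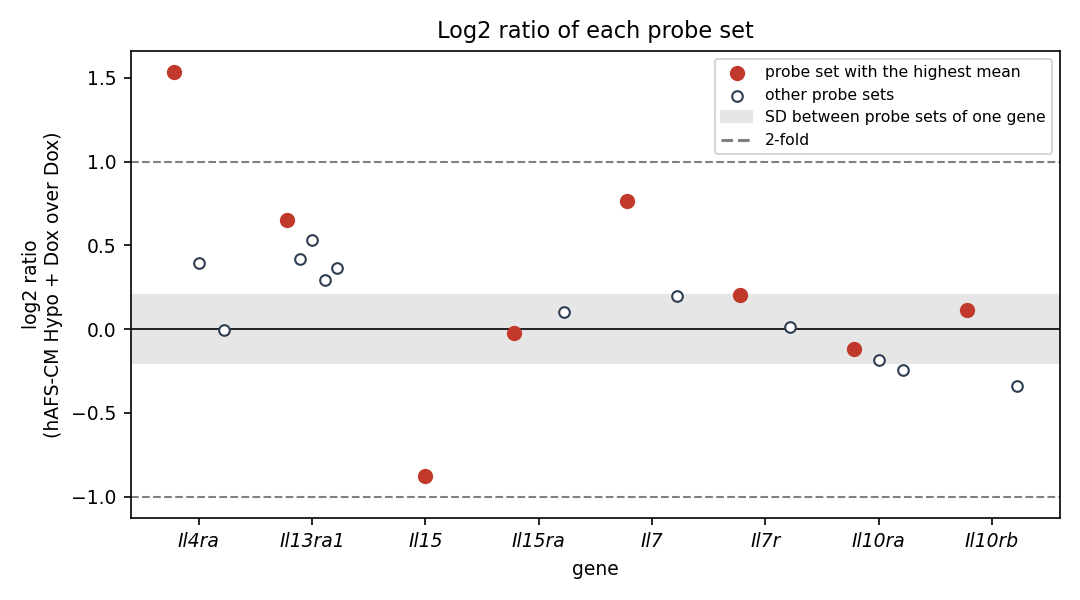
Log2 ratio (hAFS-CM Hypo + Dox over Dox) of every probe set by gene, with the brightest probe set in red and the others as open points; the grey band is the probe-set SD (0.20) and the dashed lines mark 2-fold. Only 1 probe set of *Il4ra*, at 1.54, lies beyond 2-fold, and the 5 points of *Il13ra1* lie between 0.29 and 0.65.

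Across the group, 4 of the 8 measured members were higher by over the probe-set SD, namely *Il4ra*, *Il7*, *Il13ra1* and, by a margin in the third decimal, *Il7r*, and 1, *Il15*, was lower. Of these, *Il7* and *Il7r* stayed below the median signal on both arrays. Of all genes, 18.5% were higher and 16.3% lower by that much. The median log2 ratio of the 8 was 0.16, against 0.0058 over all genes. Signal reached the median of all values on at least 1 array for 4 members, *Il4ra*, *Il13ra1*, *Il15* and *Il10rb*. Of the 20 probe sets, 13 had a log2 ratio above 0 and 7 below 0, and 3 lay below the 25th percentile on both arrays. Probe sets of one gene differed in sign for *Il4ra*, *Il15ra* and *Il10rb*, 3 of the 7 members with several.

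**Figure D3:**
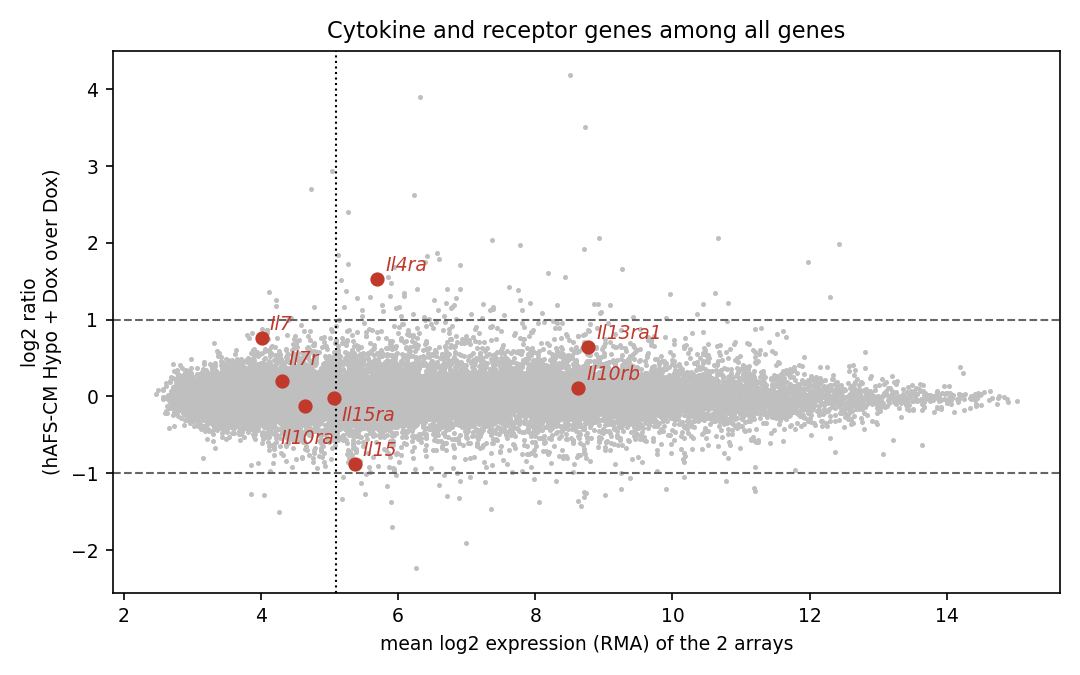
Mean log2 expression (RMA) of both arrays (x axis) and log2 ratio, hAFS-CM Hypo + Dox over Dox (y axis), for all genes at their brightest probe sets; the dashed lines mark 2-fold, the dotted line the median of all values, and the 8 measured members are red. *Il4ra*, at 1.54, lies above the upper line, *Il15*, at -0.87, lies just inside the lower one, and *Il13ra1* and *Il10rb* are the members of high signal.

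Other genes of these pathways were taken from 7 lists, which were chosen with earlier results of these arrays known and share some genes. For comparison, 0.506% of all genes were 2-fold higher and 0.214% were 2-fold lower. The median log2 ratio of all genes was 0.0058. Of 12 other cytokines and receptors of the common gamma chain and TSLP family, none was 2-fold higher or lower (median log2 ratio 0.04), and only 4 reached the median signal. *Tslp*, an epithelial cytokine whose receptor holds IL-7Rα, had -0.39, and *Crlf2*, the TSLP receptor chain that joins it, had 0.31. Of 8 measured genes of the IL-10 and IL-22 family, none was past 2-fold either (median 0.01), and 2 reached the median signal. They were *Ifnlr1*, which pairs with IL-10Rβ in the receptor of type III interferons, with 0.29, and *Il20*, with 0.23.

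All 17 genes of receptor-proximal signalling, the kinases, STATs and adaptors below these receptors, reached the median signal. Of these, 1 was 2-fold higher and none was 2-fold lower (median 0.003). That gene was *Socs3*, a brake on STAT3 signalling, with a log2 ratio of 1.04 (9.94 and 8.90) and 1.00 to 1.12 over its 3 probe sets. *Jak1*, the kinase that binds IL-4Rα, IL-7Rα and IL-10Rα, had 0.53, with -0.19 at the lowest of its 3 probe sets. *Jak2* had 0.43.

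Genes that these cytokines are known to induce were read next. Of 17 genes of the STAT6 response, none was past 2-fold (median 0.06), and 8 reached the median signal. By over the probe-set SD, 6 of the 17 were higher and 3 lower, where 18.5% and 16.3% of all genes were. *Egr2* had 0.74, *Tgm2* 0.58 and *Mrc1* 0.45. Other genes of this list were named after their values were read. The lowest were *Chil3*, with -0.57 (4.21 and 4.77), and *Alox15*, with -0.39 (4.94 and 5.33). *Arg1* (3.92 and 3.87) and *Retnla* (4.06 and 4.15), defining genes of the macrophage response to IL-4, lay below the median signal on both arrays. Of 12 genes of the STAT3 response to IL-10, a list that holds *Il4ra* itself, 3 were 2-fold higher and none was 2-fold lower (median 0.38). Besides *Il4ra* they were *Bcl3*, an NF-κB cofactor, with 1.69 from 1 probe set (6.78 and 5.09), and *Socs3*. The Dox reading of *Bcl3* was just below the median signal. Of all genes, 0.506% were 2-fold higher. The median of the STAT3 list was 0.18 with the mean of all probe sets and 0.21 with less specific probe sets left out. STAT3 also serves IL-6, so this list is not particular to IL-10, and *Il10* itself was 3.05 and 3.38.

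Of 10 genes of the STAT5 response to IL-7 and IL-15, none was past 2-fold (median 0.04). *Socs2* had 0.53, with -0.13 to 1.56 over its 6 probe sets, *Cish* 0.43 and *Ccnd2* -0.32. Of 15 measured genes of the interferon and IRF1 pathway, which is known to induce *Il15* and *Il15ra*, 2 were 2-fold higher and none was 2-fold lower (median 0.28). They were the GTPase gene *Gbp2*, with 2.41 (6.47 and 4.06), and *Irf1*, with 1.19 (8.90 and 7.72). *Irf7* had 0.52 (5.33 and 4.81). The Dox readings of *Gbp2* and *Irf7* were below the median signal. By over the probe-set SD, 10 of the 15 were higher and 2 lower, where 18.5% and 16.3% of all genes were. Those 2, named after their values were read, were *Ifit2*, with -0.47, and *Stat2*, with -0.38. *Irf1* was higher and *Il15* lower with hAFS-CM Hypo + Dox, each read by 1 probe set, and a relation between them was not tested.

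**Figure D4:**
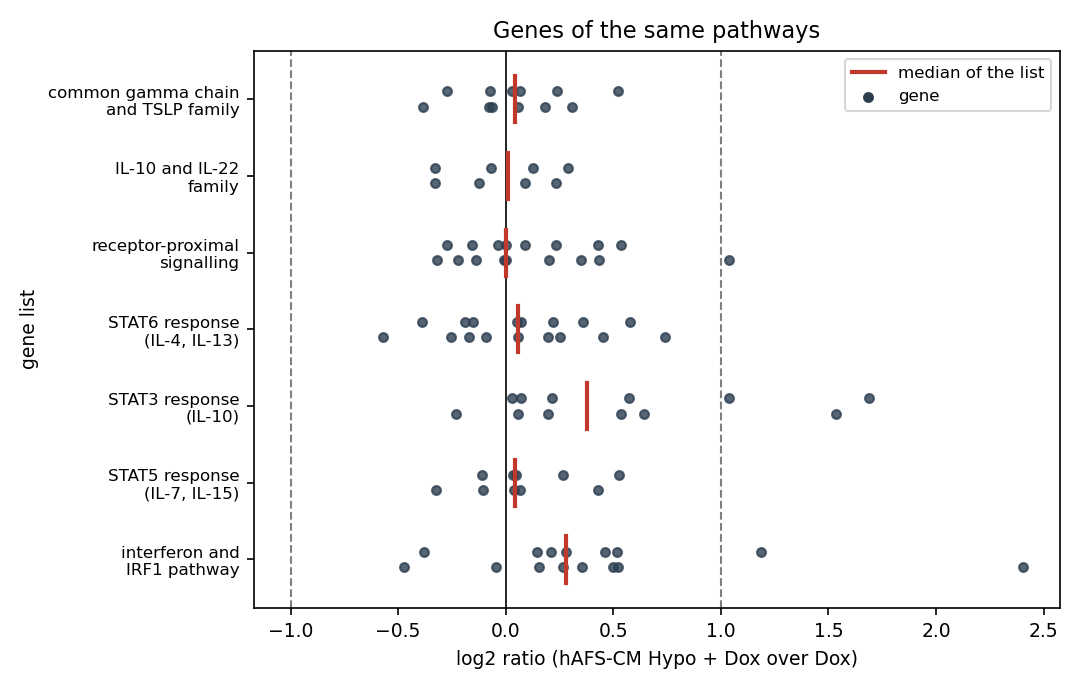
Log2 ratio (hAFS-CM Hypo + Dox over Dox) of each measured gene in 7 lists of related genes, 1 point per gene at its brightest probe set; red bars are list medians and dashed lines mark 2-fold. The medians lie between 0.003 and 0.38, and the points beyond 2-fold are *Bcl3*, *Il4ra*, *Socs3* (in 2 lists), *Gbp2* and *Irf1*.

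Markers of other cells were read beside the members, since several members are genes of leukocytes. Of 10 macrophage markers, 9 reached the median signal, and values ran from 4.21 to 11.8 with hAFS-CM Hypo + Dox and from 4.80 to 11.9 with Dox. Their summed linear signal was 5324 with hAFS-CM Hypo + Dox and 5367 with Dox, most of it from *Lyz2*, the brightest of them, which had a log2 ratio of -0.11. Without *Lyz2*, a sum added after the values were read, the other 9 gave 1768 and 1531. The median log2 ratio of the 10 was 0.06, with 4 higher and 1 lower by over the probe-set SD. Those 5, named after their values were read, were *Cd14* with 0.80, *Ptprc* with 0.48, *Csf1r* with 0.33, *Adgre1* with 0.33 and *Itgam* with -0.58. *Ptprc* and *Csf1r* also had probe sets below 0. Macrophage markers gave signal in both cultures, and their part in the readings of *Il4ra*, *Il13ra1* and *Il10ra* was not tested.

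Of lymphoid and other immune markers, none was past 2-fold. Signal reached the median for 3 of 5 T cell markers, with *Cd3e* at 6.02 and 5.95. *Cd3d* (4.58 and 4.61) and *Cd3g* (3.49 and 3.62), named after their values were read, lay below it on both arrays. The T cell list had a median log2 ratio of 0.07, with 2 genes higher and 0 lower by over the probe-set SD. Those, also named after reading, were *Cd4*, with 0.25 (-0.18 to 0.25 over 2 probe sets), and *Cd8a*, with 0.24 (-0.10 to 0.47 over 5). The median signal was reached by none of 3 B cell and none of 5 mast cell markers. It was reached by 1 of 4 natural killer cell, 1 of 4 dendritic cell and 2 of 4 neutrophil markers. The brightest marker of the B cell list, *Cd79a*, had a log2 ratio of -0.13, that of the mast cell list, *Tpsb2*, -0.02, that of the dendritic cell list, *Flt3*, -0.29, and that of the neutrophil list, *S100a9*, -0.15. The natural killer cell list had a median log2 ratio of -0.36, with all 4 below 0 and *Prf1* at -0.28 (0.23 at its other probe set). The dendritic cell list had a median of -0.17, with all 4 below 0 too. The mast cell list had a median of -0.19, with 4 of 5 below 0. Its lowest, *Cma1*, named after its values were read, had -0.87 (3.52 and 4.39). Of the stromal lists, fibroblast markers had a median of -0.08, endothelial markers of 0.04 and smooth muscle markers of 0.13, and cardiomyocyte markers of -0.15, with all 8 of the latter below 0. The brightest marker of these lists was *Dcn* for fibroblasts, with 0.41, *Emcn* for endothelium, with 0.05, *Acta2* for smooth muscle, with -0.01, and *Tnnt2* for cardiomyocytes, with -0.02. Of the 8 cardiomyocyte markers, 3 were lower and 0 higher by over the probe-set SD. The lowest, *Pln*, named after its values were read, had -0.57 (-0.87 to -0.57 over 3 probe sets). The fibroblast list was mixed, with 2 genes higher and 3 lower by over the probe-set SD. Its extremes, named after their values were read, were *Pdgfra*, with 0.79 (-0.05 to 0.79 over 3 probe sets), and *Tcf21*, the 1 gene that was 2-fold lower, with -1.03, whose other probe set gave 0.18. Whether these shifts have a part in the values of *Il4ra*, *Il13ra1*, *Il15* or *Il7* was not tested.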

How the data were processed

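Gene expression was measured with 1 Affymetrix mouse array for Dox and 1 for hAFS-CM Hypo + Dox. The authors made the deposited log2 values with RMA and quantile normalization, and these were used as they stand. RMA is also named in the submitters' processing notes, with its version and probe set definitions not given in the sources used here. Quantile normalization gives both arrays nearly the same distribution, so a shift shared by most genes would not be seen.

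Gene symbols of the platform annotation were brought up to date by Entrez ID from RefSeq (GRCm38.p6), which matched 34754 of 34958 probe sets with 1 gene. The genes exclude 64 control probe sets. Each gene took its brightest probe set (highest mean over both arrays), and differences of 2-fold or more were counted, as in the methods of the study. With 1 array per condition no test was made, and precision is limited by the number of arrays.

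The members and lists were chosen with earlier results of these data known. The genes named are all members, up to 3 genes per list that differed most at or above the median signal, the 3 nearest to *Il4ra* and to *Il15* in log2 ratio, and the most abundant marker of each cell type. Other genes are said to be chosen after their values were read. The counting was tested on simulated data, where all probe sets of a changed gene moved by the same 3-fold, with noise below the probe-set SD. It was not tested on genes whose probe sets disagree. The probe-set SD was pooled over genes with 2 or more probe sets at or above the median signal. As alternatives, the threshold was set at 1.5-fold or 3-fold, and the others were filters on signal at the median and the 25th percentile, centring, lowess on mean expression (span 0.3), the mean of all probe sets, the probe set of largest change, and leaving out less specific probe sets. Python 3.11.15 was used with pandas 2.3.3, numpy 2.4.6, matplotlib 3.10.9 and statsmodels 0.14.6.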

Additional observations from a re-analysis of the deposited data

How the results depend on the processing

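Lowess correction moved no member by as much as the probe-set SD, 0.20. Centring could not do so, since it takes 0.0017 from every log2 ratio. The filters on signal only drop genes and cannot change the log2 ratio of a gene that is kept. The filter at the median kept *Il4ra*, *Il13ra1*, *Il15* and *Il10rb*. The choice of probe set did matter, but it could not move *Il15*, which has 1 probe set. With the mean of all probe sets, *Il4ra* had a log2 ratio of 0.64, *Il7* of 0.48 and *Il10rb* of -0.11, and 0 members were past 2-fold. With the probe set of largest change, *Il10rb* had -0.34, 198 genes in all were past 2-fold, and so was 1 gene of the STAT5 list. With less specific probe sets left out, *Il4ra* had no probe set, so 0 members were past 2-fold, as were 0 genes of receptor-proximal signalling, 1 of the STAT3 list and 1 of the interferon and IRF1 pathway. At 1.5-fold, 4 members (3 higher, 1 lower), 699 genes, 1526 probe sets and 1 STAT6 gene were counted. At 3-fold there were 0 members, 27 genes, 53 probe sets, 0 genes of receptor-proximal signalling, 1 of the STAT3 list and 1 of the interferon and IRF1 pathway. At or above the median signal, the IL-10 and IL-22 family was left with 2 genes and a median of 0.26. Leaving out *Lyz2*, an alternative chosen after seeing the data, took the log2 ratio of the summed macrophage markers from -0.01 to 0.21. The other 166 of 189 values moved by less than the probe-set SD or, for counts, stayed within 1.5 times. Some of them could not move, such as the log2 ratios of members under the filters. The log2 ratio of *Il4ra* did not change sign under any alternative that gave it a value. Nothing is read from this, because the filters, centring and the probe set of largest change could not reverse it. Only the mean of all probe sets moved it by over the probe-set SD, to 0.64. No paired analysis was possible because there was 1 array per condition. Without replicates, no difference here is separated from variation between cultures, and signals below the median may be background.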
